A study of Nannochloropsis oceanica with 6 samples.

Results

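Signalling genes of the unicellular marine alga Nannochloropsis oceanica were followed through a short pulse of blue or of red light. They are the 274 gene models, of 10641 in the deposited table, whose eukaryotic orthologous group (KOG) class is signal transduction and whose mean over all libraries was at least 1 FPKM, that is, sequenced fragments corrected for transcript length and library depth. The class held 324 models. Of these, 42 were under that level or had no value, and 8 more were left out by an identifier or by words in their descriptions that belong to ubiquitin, chaperones, heat shock, cyclins, Myb factors or thioredoxins. Polyadenylated RNA was sequenced from 6 libraries in 3 groups of 2. All cells were strain CCMP1779, grown at 22 °C in cycles of 12 h light at 30 µmol s−1 m−2 and 12 h dark, moved to darkness at zeitgeber time 12 h and held there for 36 h. The dark group stayed in darkness, the blue group had 5 min of blue light and the red group 5 min of red light, each at 20 µmol s−1 m−2. Harvest followed after 15 min more in darkness in every group, the controls included.

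Protein kinases transfer a phosphate from ATP to other proteins and protein phosphatases remove it, so that opposing enzymes set the state of a target within a cell. Second messengers, such as calcium ions, cyclic nucleotides, inositol phosphates and diacylglycerol, are small molecules or ions whose concentration carries a signal from a receptor to those enzymes. Algae sense light through photoreceptors, and phosphorylation and calcium are among the carriers of light signals known from land plants.

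The label of the set covered a part of its members. By words in their deposited descriptions, 113 members were kinases, 38 were phosphatases, 24 were calcium proteins and 3 were cyclic nucleotide proteins. These groups overlap, since 17 calcium proteins were also kinases, and 155 members stood in at least 1 of them. Among the kinases, 16 were lipid or inositol kinases, 4 were dehydrogenase kinases and 2 were histidine kinases. Another 9 matched through the word alone, such as a phosphoribulokinase. The remaining 82 were taken as protein kinases by exclusion. The other 119 members stood in none of the 4 groups, and 29 of those were G proteins or their regulators. A word search for target of rapamycin, the AMP-activated kinase SNF1, protein phosphatase 1 and cyclic nucleotide phosphodiesterases found no member. For adenylate or guanylate cyclases the search found 1 model, and that is described as a cyclase-associated protein and not as a cyclase. It would miss such enzymes under other wording, or among the 16 serine/threonine kinases with no named family. KOG names come from animals, yeast and other model organisms, so a name here marks the class of a model and not a tested function.

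No member was at 0 in any library. The median level over the 274 members was 26.9 FPKM in the dark group, 31.2 after blue and 29.5 after red, beside 23.03, 27.97 and 25.96 over all 9087 models tested. Members lay between 0.554 and 1481 FPKM in the dark group mean. Summed over all members, the level was 21190 and 21160 FPKM in the dark libraries, 17000 and 17210 after blue, and 17290 and 17630 after red. The libraries' own FPKM sums were also highest in the dark, at 767193 and 767747, against 624861 and 662229 after blue and 588092 and 615972 after red, and the members took between 2.60% and 2.94% of the total in every library. The least abundant members were a MAP kinase kinase (591183, mean 1.03 FPKM) and a MAP kinase (587501, mean 1.04 FPKM), just inside the limit of 1 FPKM. Just outside stood a calcium-dependent kinase (597264, mean 0.813 FPKM) and a phosphatidylinositol 3-kinase (359608, mean 0.611 FPKM).

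Changes are differences of log2(FPKM + 1), which understate the change of models at low level. A model is called when the Benjamini-Hochberg adjusted p of limma, over all 9087 models, was under 0.05, and all adjusted p-values here come from that fit. Whether the 2 replicates of a group were separate cultures is not stated in the labels. The p-values therefore rest on library-to-library spread, part or all of which may be technical. In RNA from whole cultures, a lower level in every cell and fewer cells holding the transcript cannot be told apart. The median difference between the replicates of a group, over the members, was 0.06 log2 in the dark, 0.14 after blue and 0.10 after red.

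After blue light, 88 members rose and 123 fell, out of 274. Called rises were 39.9% of all models tested and called falls 36.2%, against 32.1% and 44.9% of the members. In all, 77.0% of the members and 76.1% of all models were called, so the number of changed members was near the background. Changes of at least 2-fold among the called members numbered 28 upward and 29 downward, which is 10.2% and 10.6% of the members, where the background was 15.8% and 12.6%. The median change of the members was −0.16, beside 0.05 over all models tested. The balance of rises and falls depended on the scaling of the libraries: 110 rose and 91 fell on TPM values (FPKM rescaled so that every library sums to the same total), and 58 rose and 158 fell with median centring, which sets the medians of the libraries equal. Among all models, 49.8% rose and 27.0% fell on TPM values, and 29.1% and 47.3% with median centring. Their median moved from 0.05 to 0.28 and to −0.22.

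After red light, 78 members rose and 94 fell, or 28.5% and 34.3%, against backgrounds of 33.7% and 29.5%. The share called was 62.8% of the members and 63.3% of all models. At least 2-fold, 14 called members rose and 10 fell, where 6.22% and 5.92% of all models did so. The median change was −0.04 among the members and 0.04 over all models. On TPM values 138 members rose and 44 fell, and with median centring 54 rose and 122 fell, while the median of all models was 0.37 and −0.12. Among all models, 54.6% rose and 16.1% fell on TPM values, and 24.8% and 38.5% with median centring. Both comparisons use the same dark libraries, so their values stand side by side below and are not set against each other as independent results.

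The pulses were compared directly as well. Between blue and red, 58 members were higher after blue and 82 were higher after red, or 21.2% and 29.9%, where 27.0% and 23.7% of all models were called in these directions. Called members made up 51.1%, and called models 50.7%, with 9.67% of all models called at 2-fold or more. Of the members, 7 were at least 2-fold higher after blue and 11 at least 2-fold higher after red, beside backgrounds of 5.81% and 3.86%. TPM values gave 40 and 100, quantile normalization 41 and 97, and median centring 38 and 100. All models moved with them, from 2453 higher after blue and 2153 higher after red to 1970 and 2656 on TPM values. Quantile-normalized values called 2081 and 2576 of all models, and centred ones 1898 and 2746. Without red replicate 1, 35 members in place of 58 were higher after blue. The shares of all models given for the 3 comparisons are the background for the counts of every family below.

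**Figure D1:**
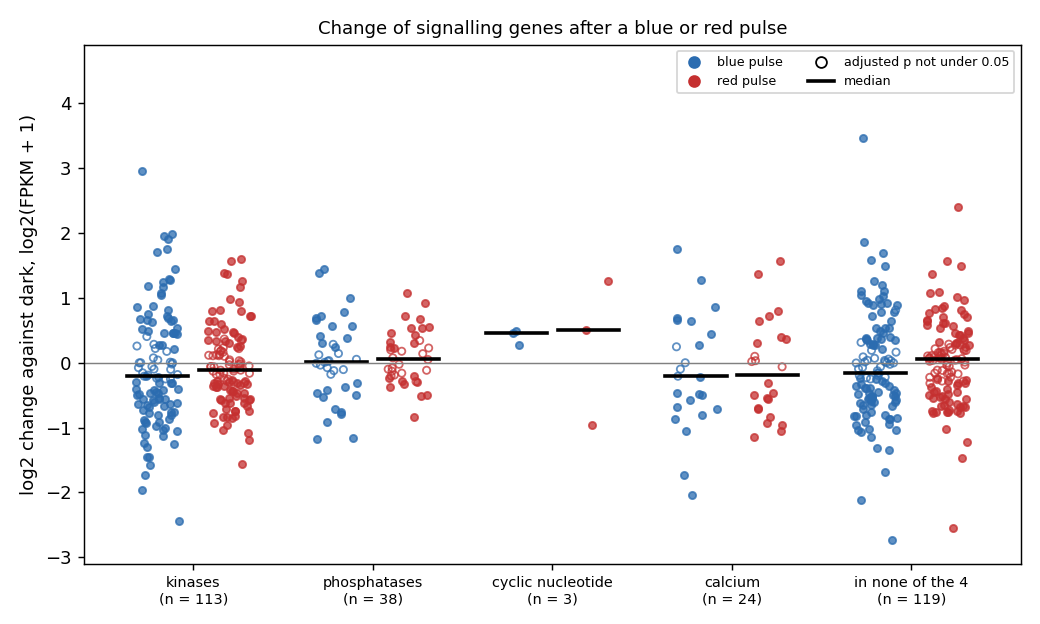
Log2 change of every member against dark, on log2(FPKM + 1), by group of descriptions, with blue and red points for the blue and the red pulse, filled points for called members and black bars for medians; a member can stand in more than 1 group. In the kinases, the phosphatases, the calcium proteins and the members outside the 4 groups, points reach further from 0 after blue than after red. All models tested also changed more after blue, with a median absolute log2 change of 0.61, against 0.41 after red. The median of the kinases is below 0 after both pulses, and above 0 after red on TPM values.

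Among the 113 kinases, 36 rose and 54 fell after blue, 29 rose and 44 fell after red, and 28 were higher after blue and 40 after red in the direct comparison. TPM values turned this to 44 and 42 after blue and to 49 and 22 after red, and median centring gave 26 and 68 after blue and 21 and 56 after red. The shares of all models, given above for each scaling, moved in the same directions. On TPM values after red, 43.4% of the kinases rose and 19.5% fell, beside 54.6% and 16.1% of all models. The 82 models taken as protein kinases by exclusion counted 26 rises and 37 falls after blue and 21 and 28 after red. On TPM values they counted 31 and 31 and then 37 and 16. By their coordinates, 90 members overlapped another model, 63 of them on the opposite strand. Of the 184 members without such an overlap, 55 rose and 83 fell after blue and 52 and 62 after red, or 70 and 63 and then 90 and 28 on TPM values.

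A predicted diacylglycerol kinase (63610) had the largest rise of all kinases after blue and the largest difference between the pulses. Enzymes of this class turn the messenger diacylglycerol into phosphatidic acid. The model lies on scaffold 13, positions 164602 to 166714 on the minus strand (assembly and models Nanoce1779_2). It stood at 87.1 and 88.5 FPKM in the dark libraries, 645 and 738 after blue and 65.3 and 71.6 after red. The blue libraries lay far above all others, and both red libraries lay below both dark ones. Its log2 change was 2.96 (SE 0.09, adjusted p = 1.41e-08) after blue and −0.36 (SE 0.09, adjusted p = 0.00843) after red, and the pulses differed by 3.31 (SE 0.09, adjusted p = 2.18e-08). Model 63610 lost its call after red without dark replicate 1 (−0.37), dark replicate 2 (−0.34) or red replicate 1 (−0.29) and with TPM.

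Other kinases of lipid messengers moved in both directions. Phosphatidylinositol 4-kinases and phosphatidylinositol-4-phosphate 5-kinases act one after the other in making the phosphoinositide that animal phospholipase C splits into messengers. A phosphatidylinositol-4-phosphate 5-kinase (318814, scaffold 47, positions 26038 to 29231 on the minus strand) was at 22.6 and 22.4 FPKM in the dark, 94.9 and 79.7 after blue and 71.8 and 68.1 after red. Its log2 change was 1.90 (SE 0.10, adjusted p = 2.37e-07) after blue and 1.59 (SE 0.10, adjusted p = 2.26e-06) after red, and every pulsed library stood above every dark one. The blue libraries were also above the red ones, by 0.31 log2 (adjusted p = 0.0256). Model 318814 lost its call between the pulses without blue replicate 1 (0.19), red replicate 1 (0.35) or red replicate 2 (0.27) and with TPM, quantile normalization, median centring or no filter on level.

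A phosphatidylinositol 4-kinase (200457) went the other way. Its libraries gave 188 and 176 FPKM in the dark, 65.99 and 54.6 after blue and 91.9 and 85.1 after red, so that the groups did not overlap. The log2 changes were −1.58 (SE 0.10, adjusted p = 9.67e-07) after blue and −1.03 (SE 0.10, adjusted p = 3.32e-05) after red. Over all 16 lipid and inositol kinases, 6 rose and 7 fell after blue, with changes from −1.58 to 2.96, and 5 rose and 7 fell after red, from −1.03 to 1.59. The background was 39.9% and 36.2% of all models after blue and 33.7% and 29.5% after red. With TPM the counts were 9 and 4 after blue and 8 and 3 after red. The direct comparison called 4 of them higher after blue and 6 higher after red.

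MAP kinases end the cascades in which a MAP kinase kinase phosphorylates a MAP kinase, which then phosphorylates its own targets. Of 9 members described as MAP kinases, 3 rose and 4 fell after blue, and 1 rose and 4 fell after red. In all models tested, 39.9% rose and 36.2% fell after blue, and 33.7% rose and 29.5% fell after red. MAP kinase 674165, on scaffold 37, positions 62611 to 67584 on the plus strand, had the largest fall of all kinases after blue. Its level was 54.7 and 53.7 FPKM in the dark, 9.86 and 8.57 after blue and 37.8 and 34.3 after red. The 3 groups did not overlap, with blue lowest and dark highest. Its log2 change was −2.44 (SE 0.10, adjusted p = 5.98e-08) after blue and −0.58 (SE 0.10, adjusted p = 0.000795) after red, a difference of −1.86 between the pulses (SE 0.10, adjusted p = 8.58e-07). Model 674165 lost its call after red with TPM.

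MAP kinase 617434 changed the opposite way after blue, from a very low level. Dark libraries held 1.13 and 0.979 FPKM, blue libraries 6.24 and 8.004 and red libraries 0.896 and 0.562. Blue stood above all other libraries, and the red values were just under the dark ones. The log2 change after blue was 1.98 (SE 0.16, adjusted p = 4.35e-06), and that after red, −0.25, did not pass the threshold (adjusted p = 0.203). In the direct comparison blue exceeded red by 2.23 (SE 0.16, adjusted p = 6.57e-06).

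The next largest changes of MAP kinases after blue were in 530517 and 576541. MAP kinase 530517, which overlaps a model on the same strand, had 60.6 and 63.4 FPKM in the dark, 152 and 154 after blue and 121 and 99.7 after red. It rose by 1.29 (adjusted p = 2.8e-06) after blue and 0.82 (adjusted p = 0.000109) after red. In MAP kinase 576541 the values were 21.9 and 20.5 FPKM in the dark, 7.82 and 8.96 after blue and 9.47 and 9.47 after red. Its pulsed libraries were all below the dark ones, with log2 changes of −1.24 (SE 0.10, adjusted p = 4.7e-06) and −1.08 (SE 0.10, adjusted p = 2.7e-05). Blue and red lay close together, and their difference, −0.16, missed the threshold (adjusted p = 0.234).

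None of the 6 MAP kinase kinases was called higher after either pulse, and 4 were called lower after blue and 2 after red. All models tested had 39.9% called higher and 36.2% called lower after blue, and 33.7% and 29.5% after red. This family, like the others, was sorted after the values were seen. The changes of the 6 models ran from −1.45 to −0.16 after blue and from −0.83 to −0.13 after red. On TPM values the highest was above 0, at 0.01 after blue and 0.22 after red. TPM, quantile normalization and median centring also gave no call upward, with 4 to 5 falls after blue and 1 to 6 after red. The member with the largest fall, 630493, stood at 111 and 107 FPKM in the dark, 36.1 and 42.8 after blue and 97.3 and 94.2 after red. Its blue libraries were far below all others, while the red ones lay somewhat under the dark ones. The log2 change was −1.45 (SE 0.09, adjusted p = 9.75e-07) after blue, and −0.19 after red missed the threshold (adjusted p = 0.114). In the direct comparison blue was lower by 1.26 (SE 0.09, adjusted p = 7.31e-06).

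**Figure D2:**
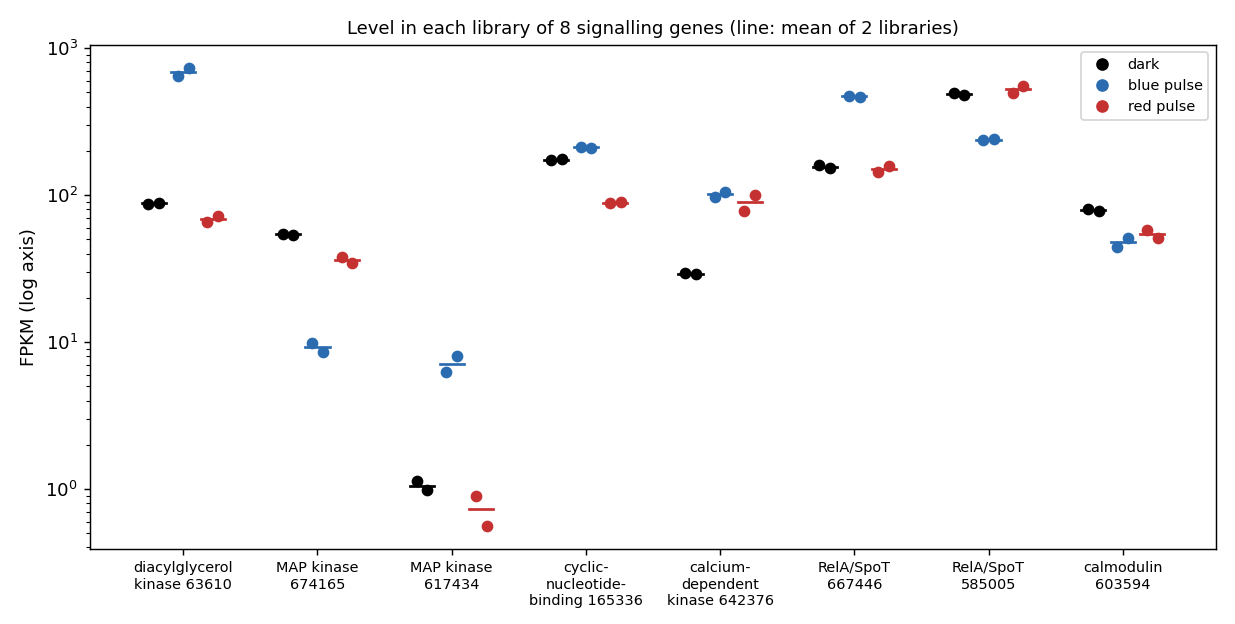
FPKM in each of the 2 libraries of the dark (black), blue (blue) and red (red) groups for 8 signalling genes, on a log axis, with a short line at each group mean. Diacylglycerol kinase 63610, MAP kinase 617434 and RelA/SpoT model 667446 are high in the blue libraries alone, cyclic-nucleotide-binding model 165336 is low in the red libraries, and calcium-dependent kinase 642376 is high after both pulses.

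Dehydrogenase kinases sit in mitochondria, where in animals and plants they switch off pyruvate dehydrogenase or the branched-chain ketoacid dehydrogenase by phosphorylation. All 4 models of this class were called after blue, 2 upward and 2 downward, and all 4 differed between the pulses, also 2 in each direction. Of all models, 76.1% were called after blue and 50.7% between the pulses, and the class was picked after its values were seen. The counts were the same under TPM, quantile normalization and median centring for blue against dark and for blue against red. Model 572138, described as a mitochondrial pyruvate dehydrogenase kinase, was at 265 and 269 FPKM in the dark, 66.2 and 68.7 after blue and 175 and 187 after red. No groups overlapped, with blue lowest. It fell by 1.97 after blue (adjusted p = 5.65e-08) and by 0.56 after red (adjusted p = 0.000263).

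The second dehydrogenase kinase that fell, 612171, is described as the branched-chain ketoacid form. Its level was 29.8 and 29.8 FPKM in the dark, 12.95 and 13.4 after blue and 23.7 and 22.4 after red. The log2 changes were −1.12 (SE 0.09, adjusted p = 3e-06) and −0.36 (SE 0.09, adjusted p = 0.00604). Model 612171 lost its call after red without dark replicate 1 (−0.36) or dark replicate 2 (−0.36) and with TPM. Model 594348, by contrast, had 14.7 and 18.2 FPKM in the dark, 56.98 and 53.7 after blue and 24.1 and 22.5 after red. It rose by 1.70 after blue (adjusted p = 9.79e-07) and 0.48 after red (adjusted p = 0.00423). Model 594348 lost its call after red without dark replicate 1 (0.34). Pyruvate dehydrogenase kinase 598127 stood at 51.1 and 50.1 FPKM in the dark, 97.3 and 119 after blue and 52.5 and 56.7 after red. Its rise after blue was 1.07 (SE 0.10, adjusted p = 1.22e-05), and its change after red, 0.11, was not called (adjusted p = 0.396).

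Histidine kinases are the sensors of two-component systems, known from bacteria, fungi and plants. There were 2 such members, and they moved apart. Model 298517 was at 10.2 and 9.23 FPKM in the dark, 18.1 and 19.2 after blue and 14.3 and 16.2 after red, and rose by 0.88 (adjusted p = 5.34e-05) and 0.60 (adjusted p = 0.000982). Model 562613 was at 163 and 150.0 FPKM in the dark, 93.3 and 84.2 after blue and 116 and 132 after red and fell by 0.81 after blue (adjusted p = 4.68e-05) and by 0.34 after red (adjusted p = 0.013). On TPM values the red change of 562613 was 0.01 and was not called. Model 562613 lost its call after red without dark replicate 1 (−0.28) or red replicate 1 (−0.25) and with quantile normalization.

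Casein kinases, which are abundant and broadly acting in other eukaryotes, were 3 members. Model 624655 had 174 and 172 FPKM in the dark, 109 and 99.2 after blue and 128 and 158 after red, and changed by −0.73 (SE 0.11, adjusted p = 0.000194) and −0.27 (SE 0.11, adjusted p = 0.0492). Model 674263, which overlaps a model on the opposite strand, was at 189 and 189 FPKM in the dark, 169 and 158 after blue and 146 and 159 after red, with changes of −0.21 (SE 0.08, adjusted p = 0.0462) and −0.31 (SE 0.08, adjusted p = 0.00982). The third, 557193, stood at 19.5 and 20.4 FPKM in the dark, 21.4 and 18.6 after blue and 22.1 and 21.1 after red and was not called after blue or red (log2 changes 0.00 and 0.11). Model 624655 lost its call after red without dark replicate 1 (−0.27), dark replicate 2 (−0.28) or red replicate 1 (−0.12) and with quantile normalization, pseudocount 0.1, no filter on level or no variance trend. Model 674263 lost its call after blue without dark replicate 1 (−0.21), dark replicate 2 (−0.21) or blue replicate 2 (−0.16) and with quantile normalization or no variance trend. Model 674263 lost its call after red without dark replicate 1 (−0.31), dark replicate 2 (−0.31) or red replicate 1 (−0.25) and with quantile normalization. On TPM values the red changes of 624655 and 674263 and the blue change of 674263 were above 0 and not called.

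The kinase with the highest mean over the 6 libraries was a model in the class of the human kinase ACK, which binds activated Cdc42. Model 595480 stood at 1224 and 1243 FPKM in the dark, 472 and 560.1 after blue and 1172 and 1104 after red. Its blue libraries were below the other 4, and the red ones lay just under the dark. The log2 change after blue was −1.26 (SE 0.11, adjusted p = 4.47e-06), and the change after red, −0.12, missed the threshold (adjusted p = 0.357). The red change was a called 0.23 on TPM values and a called 0.65 with quantile normalization. All 12 members of this class counted 6 rises and 5 falls after blue and 4 and 2 after red. On TPM values they counted 6 and 4 after blue and 7 and 1 after red. The FPKM background was 39.9% and 36.2% of all models after blue and 33.7% and 29.5% after red.

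In the 16 serine/threonine kinases with no named family, 4 rose and 9 fell after blue and 5 and 6 after red, or 7 and 2 after red on TPM values. Model 626628 had the largest fall of all kinases after red. It stood at 64.9 and 69.4 FPKM in the dark, 22.95 and 25.1 after blue and 22.6 and 21.5 after red, with log2 changes of −1.45 (SE 0.09, adjusted p = 6.85e-07) and −1.56 (SE 0.09, adjusted p = 1.51e-06). Model 549086, also in this group, went from 127 and 133 FPKM in the dark to 69.2 and 68.2 after blue and 54.2 and 59.2 after red, changes of −0.91 (SE 0.08, adjusted p = 6.99e-06) and −1.19 (SE 0.08, adjusted p = 4.02e-06). All pulsed libraries of both models lay below their dark libraries. Both overlap a model on the opposite strand, and no source used here gives the strand setting of the counting, so reads of the neighbour may be part of their level.

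Phosphoribulokinase 604976 is a member of the kinases by its word alone. Phosphoribulokinases are enzymes of the Calvin cycle, but the KOG class of model 604976 is that of armadillo and beta-catenin proteins, and its function was not tested. Its level was 54.6 and 58.9 FPKM in the dark, 211 and 234 after blue and 65.4 and 70.6 after red. Blue was far above both other groups, and the log2 changes were 1.95 (SE 0.09, adjusted p = 1.19e-07) after blue and 0.26 (SE 0.09, adjusted p = 0.0314) after red. Model 604976 lost its call after red without dark replicate 1 (0.20), dark replicate 2 (0.31) or red replicate 2 (0.20) and with median centring, no filter on level or no variance trend. Of the 9 kinases matched by the word alone, it was the 1 that rose after blue, while 7 fell. On TPM values 1 of the 9 rose and 4 fell. These 9 share a word and no function, and 39.9% of all models rose and 36.2% fell after blue on FPKM values.

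**Figure D3:**
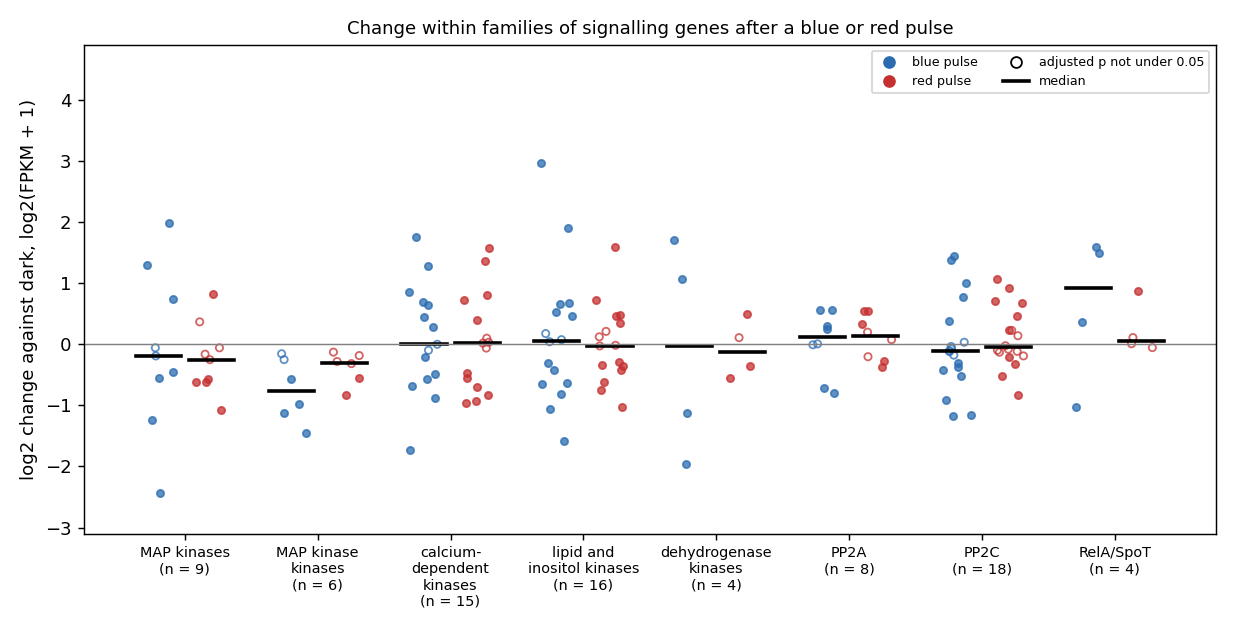
Log2 change against dark, on log2(FPKM + 1), of each member in 8 families, with blue and red points for the blue and the red pulse, filled where called, and black bars for medians. No MAP kinase kinase lies above 0 on these FPKM values, while on TPM values the highest was 0.01 after blue and 0.22 after red. The 4 dehydrogenase kinases split into 2 above and 2 below 0 after blue, and the changes of the lipid and inositol kinases after blue range from −1.58 to 2.96.

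Calcium proteins read or release the messenger calcium. Of 24 such members, 8 rose and 12 fell after blue, and the counts after red were the same, 8 and 12, each out of 24. Of all models, 39.9% rose and 36.2% fell after blue and 33.7% and 29.5% after red. The direct comparison called 7 higher after blue and 6 higher after red. TPM values gave 10 rises and 9 falls after blue and 11 and 8 after red, and median centring gave 6 and 15 and 6 and 12. Among the 24, 15 are kinases of the class that carries its own calcium-binding EF-hands, as calcium-dependent protein kinases of plants do. These 15 counted 7 rises and 6 falls after blue and 5 and 6 after red, or 8 and 4 and then 8 and 5 on TPM values.

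Calcium-dependent kinase 642376, on scaffold 33, positions 87 to 2507 on the plus strand, had the largest rise of the calcium proteins after both pulses. It was at 29.4 and 29.1 FPKM in the dark, 97.1 and 105 after blue and 78.3 and 100.0 after red. All 4 pulsed libraries were above the dark ones, and blue and red overlapped. The log2 changes were 1.75 (SE 0.11, adjusted p = 9.8e-07) and 1.57 (SE 0.11, adjusted p = 5.81e-06), and the pulses differed by 0.19, which missed the threshold (adjusted p = 0.202).

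Other members of the class separated the pulses. Model 165336 carries both a cyclic nucleotide-binding and a calcium-dependent kinase description, and lies on scaffold 21, positions 5641 to 10028 on the minus strand. It stood at 174 and 175 FPKM in the dark, 214 and 209 after blue and 87.8 and 89.9 after red. Blue was the highest group, red the lowest, and none overlapped. The log2 change was 0.27 (SE 0.07, adjusted p = 0.00833) after blue and −0.97 (SE 0.07, adjusted p = 7.85e-06) after red, and blue exceeded red by 1.24 (SE 0.07, adjusted p = 1.86e-06). Model 165336 lost its call after blue without dark replicate 1 (0.27) or dark replicate 2 (0.28) and with median centring.

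Model 104357 had the reverse order of pulses. Its libraries gave 18.9 and 19.4 FPKM in the dark, 30.8 and 29.9 after blue and 49.7 and 51.99 after red, so that both pulses were above dark and red was highest. The changes were 0.64 (SE 0.08, adjusted p = 8.79e-05) after blue and 1.36 (SE 0.08, adjusted p = 2.17e-06) after red. It overlaps a model on the opposite strand. Model 596450 was at 20.8 and 22.2 FPKM in the dark, 20.8 and 19.2 after blue and 36.5 and 35.4 after red, and changed by −0.10 after blue, which was not called (adjusted p = 0.333), and by 0.72 (SE 0.09, adjusted p = 0.000126) after red. Red exceeded blue by 0.82 in that model (adjusted p = 8.11e-05).

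Further calcium-dependent kinases were lower after blue than after red. Model 587854, described as a myosin light chain kinase and overlapping a model on the same strand, went from 147 and 146 FPKM in the dark to 44.2 and 42.6 after blue and 95.4 and 103 after red. Its changes were −1.74 (SE 0.08, adjusted p = 1.24e-07) and −0.56 (SE 0.08, adjusted p = 0.000282), the largest fall after blue in its class. Model 628315 was at 229 and 235 FPKM in the dark, 158 and 153 after blue and 238 and 236 after red. It fell by 0.58 after blue (adjusted p = 9.41e-05) and was not called after red (0.03, adjusted p = 0.753).

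At low level, 212230 was at 3.15 and 3.13 FPKM in the dark, 8.89 and 9.12 after blue and 6.16 and 6.26 after red. It rose by 1.27 (SE 0.11, adjusted p = 4.87e-06) and 0.80 (SE 0.11, adjusted p = 0.000191). Model 544818, which overlaps a same-strand model, was at 4.26 and 3.71 FPKM in the dark, 8.65 and 7.43 after blue and 3.88 and 3.64 after red and rose after blue by 0.86 (SE 0.13, adjusted p = 0.000194). After red it changed by −0.06 and was not called (adjusted p = 0.675). Highest in its mean over the 6 libraries was 563435 in this class, at 497 and 476 FPKM in the dark, 441 and 397 after blue and 347 and 356 after red. Its falls of 0.22 (adjusted p = 0.0474) and 0.47 (adjusted p = 0.0014) were small, and the change after blue was above 0 and not called on TPM values and with quantile normalization, as was the change after red with quantile normalization. Model 563435 lost its call after blue without dark replicate 1 (−0.19), dark replicate 2 (−0.25), blue replicate 2 (−0.14), red replicate 1 (−0.22) or red replicate 2 (−0.22) and with no variance trend or a fit of only the 2 groups. Model 563435 lost its call after red with TPM.

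Calmodulin is the calcium sensor that binds and activates other proteins. The model described as calmodulin, 603594 on scaffold 27, positions 161289 to 163334 on the plus strand, had 80.9 and 77.9 FPKM in the dark, 44.6 and 51.1 after blue and 57.8 and 50.9 after red. Every pulsed library was below both dark libraries. The log2 change was −0.72 (SE 0.10, adjusted p = 0.000119) after blue and −0.54 (SE 0.10, adjusted p = 0.00116) after red, and the pulses did not differ past the threshold (−0.18, adjusted p = 0.157). Model 603594 lost its call after red with TPM. A second model of the calmodulin class, 544307, was at 7.62 and 7.60 FPKM in the dark, 1.15 and 1.06 after blue and 3.36 and 2.91 after red. It had the largest fall of the calcium proteins after blue, −2.03 (SE 0.13, adjusted p = 6.89e-07), and changed by −1.06 (SE 0.13, adjusted p = 8.84e-05) after red, so that dark was highest and blue lowest.

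Ryanodine receptors release calcium from the endoplasmic reticulum of animal cells. The more abundant of 2 models in that class, 673334, stood at 155 and 153 FPKM in the dark, 84.6 and 64.00 after blue and 70.1 and 68.1 after red. Both pulses lay below the dark libraries, with changes of −1.05 (SE 0.12, adjusted p = 3.56e-05) and −1.14 (SE 0.12, adjusted p = 4.37e-05). Of the 5 calcium proteins that are neither kinases nor phosphatases, 4 fell after each pulse, none rose after blue and 1 rose after red. On TPM values 1 rose and 4 fell after blue and 1 and 3 after red.

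Cyclic nucleotides bind kinases and channels in many eukaryotes. The 3 members of that group were 165336, above, a cAMP-dependent protein kinase and an adenylate cyclase-associated protein. All 3 were called higher after blue, and 2 were called higher and 1 lower after red. Among all models, 39.9% were called higher after blue, and 33.7% higher and 29.5% lower after red. With median centring none of the 3 was called after blue, and 1 was called without dark replicate 1. The catalytic subunit of the cAMP-dependent kinase, 327334, was at 5.40 and 6.37 FPKM in the dark, 8.68 and 8.58 after blue and 16.6 and 14.2 after red. The groups did not overlap, and red was highest. The log2 changes were 0.49 (SE 0.12, adjusted p = 0.00464) and 1.26 (SE 0.12, adjusted p = 2.53e-05), with red above blue by 0.77 (adjusted p = 0.000695). Model 327334 lost its call after blue without dark replicate 1 (0.39) and with quantile normalization or median centring.

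Model 327334 overlaps a kinase model of the same strand, 580125, which changed by 0.45 after blue and 1.16 after red, so reads of the pair may be shared. The adenylate cyclase-associated protein 625536, which in yeast binds adenylate cyclase and actin, was at 3.28 and 3.36 FPKM in the dark, 5.28 and 4.61 after blue and 5.65 and 4.68 after red. Its pulsed libraries were above the dark ones, with changes of 0.46 (SE 0.13, adjusted p = 0.0099) and 0.51 (SE 0.13, adjusted p = 0.00751). Model 625536 lost its call after blue without blue replicate 1 (0.38) and with median centring. Model 625536 lost its call after red without red replicate 1 (0.40).

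Phosphatases were 38 members, of which 13 rose and 12 fell after blue and 13 rose and 9 fell after red. That is 34.2% and 31.6% after blue, where 39.9% and 36.2% of all models were called. After red it is 34.2% and 23.7%, where all models had 33.7% and 29.5%. In both directions together, 65.8% of the phosphatases were called after blue and 57.9% after red, beside 76.1% and 63.3% of all models. In the direct comparison 8 were higher after blue and 9 after red. TPM values gave 17 rises and 7 falls after blue and 22 and 1 after red, and median centring 9 and 18 and 7 and 13. On TPM values after red, 57.9% of the phosphatases were called higher, beside 54.6% of all models. Leaving out 1 of the dark or red libraries lowered the 22 calls after red to between 11 and 14, while leaving out a blue library gave 25, and the 17 calls between the pulses became 10 without red replicate 1.

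Type 2A phosphatases (PP2A) consist of a scaffold subunit A, a regulatory subunit B and a catalytic subunit C. Of 8 such models, 4 rose and 2 fell after blue, and 3 rose and 2 fell after red, with no change of 2-fold. The background was 39.9% rises and 36.2% falls after blue and 33.7% and 29.5% after red. On TPM values 5 of the 8 rose and none fell after red, where 54.6% of all models rose and 16.1% fell. Scaffold subunit 559352 was at 48.7 and 47.2 FPKM in the dark, 73.02 and 69.4 after blue and 55.5 and 54.5 after red. It rose by 0.56 (SE 0.08, adjusted p = 0.00014) after blue and was not called after red (0.20, adjusted p = 0.0538). A second scaffold model, 543675, which overlaps an opposite-strand model, was at 37.7 and 40.9 FPKM in the dark, 44.5 and 49.02 after blue and 39.1 and 43.8 after red, with changes of 0.25 (SE 0.10, adjusted p = 0.0415) and 0.07 (adjusted p = 0.527). With median centring both changes of 543675 were below 0 and not called. Model 543675 lost its call after blue without dark replicate 1 (0.19), dark replicate 2 (0.30) or blue replicate 2 (0.18) and with quantile normalization, no filter on level or no variance trend.

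Regulatory subunits of PP2A direct the enzyme to its targets. Subunit 606658 of the B56 type was at 30.2 and 30.7 FPKM in the dark, 44.6 and 46.02 after blue and 43.4 and 46.7 after red, above dark in all 4 pulsed libraries. It rose by 0.56 (SE 0.08, adjusted p = 0.000209) and 0.55 (SE 0.08, adjusted p = 0.000389). Regulatory subunit 672478, which overlaps a same-strand model, was at 2.23 and 2.10 FPKM in the dark, 2.15 and 2.13 after blue and 3.25 and 3.94 after red. It changed after red alone past the threshold, by 0.53 (SE 0.13, adjusted p = 0.00697), beside −0.01 after blue (adjusted p = 0.946), and red exceeded blue by 0.55 (adjusted p = 0.00834). Model 672478 lost its call after red without red replicate 2 (0.43). Model 672478 lost its call between the pulses without red replicate 2 (−0.44). Regulatory subunit 630260 was at 49.4 and 46.6 FPKM in the dark, 49.6 and 46.7 after blue and 37.97 and 40.9 after red, with a change of 0.00 after blue (adjusted p = 0.966) and −0.28 (SE 0.09, adjusted p = 0.0192) after red. On TPM values that red change was 0.07 and was not called. Model 630260 lost its call after red without dark replicate 1 (−0.23), dark replicate 2 (−0.32) or red replicate 1 (−0.22).

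Catalytic subunit 637670 of PP2A stood at 115 and 129.8 FPKM in the dark, 66.99 and 81.6 after blue and 95.1 and 93.1 after red. Dark was highest and blue lowest, with changes of −0.72 (SE 0.11, adjusted p = 0.000219) and −0.38 (SE 0.11, adjusted p = 0.0132). Model 637670 lost its call after red without dark replicate 2 (−0.29), red replicate 1 (−0.39) or red replicate 2 (−0.36) and with TPM, quantile normalization or no filter on level. A second catalytic model, 606222, was at 15.7 and 16.2 FPKM in the dark, 17.6 and 22.6 after blue and 19.6 and 20.9 after red and changed by 0.30 (SE 0.12, adjusted p = 0.0452) and 0.32 (SE 0.12, adjusted p = 0.0434). Model 606222 lost its call after blue without dark replicate 1 (0.28), dark replicate 2 (0.33), blue replicate 2 (0.13), red replicate 1 (0.30) or red replicate 2 (0.30) and with quantile normalization, median centring, no filter on level, no variance trend or a fit of only the 2 groups. Model 606222 lost its call after red without dark replicate 1 (0.30), dark replicate 2 (0.34), red replicate 1 (0.37) or red replicate 2 (0.28) and with quantile normalization, median centring, no filter on level or no variance trend. The model similar to TAP42, which in yeast binds these catalytic subunits, was 579751. Its level was 17.4 and 20.9 FPKM in the dark, 10.2 and 10.9 after blue and 18.4 and 14.6 after red, and its fall after blue was −0.80 (SE 0.13, adjusted p = 0.000428). After red the change of −0.21 was not called (adjusted p = 0.202).

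A further model, 524292, has a product name of a 3-phosphoinositide-dependent kinase and a KOG name of a PP2A regulatory subunit. It was at 25.5 and 24.9 FPKM in the dark, 42.4 and 41.6 after blue and 27.8 and 32.4 after red, with changes of 0.71 (SE 0.10, adjusted p = 0.000101) and 0.24 (SE 0.10, adjusted p = 0.0481). Model 524292 lost its call after red without dark replicate 1 (0.26), dark replicate 2 (0.23) or red replicate 2 (0.14) and with quantile normalization, median centring, pseudocount 5, no filter on level or no variance trend. It overlaps models on both strands.

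Type 2C phosphatases (PP2C) work as single chains that need magnesium or manganese, and several of them in plants switch off hormone and stress kinases. Of 18 members in this family, 5 rose and 7 fell after blue, with changes from −1.18 to 1.44. After red, 6 rose and 4 fell, with changes from −0.84 to 1.07. TPM values gave 5 and 3 after blue and 10 and 1 after red, and median centring 4 and 11 and 4 and 6. All models counted 39.9% rises and 36.2% falls after blue and 33.7% and 29.5% after red on FPKM values.

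Model 533220, on scaffold 33, positions 95510 to 97781 on the minus strand, had the largest rise after blue of all phosphatases. It was at 14.2 and 15.5 FPKM in the dark, 41.2 and 42.6 after blue and 22.6 and 26.1 after red, so that the groups did not overlap and blue was highest. The changes were 1.44 (SE 0.10, adjusted p = 1.44e-06) and 0.68 (SE 0.10, adjusted p = 0.000335). PP2C 579608 was at 7.15 and 7.43 FPKM in the dark, 21.8 and 19.5 after blue and 15.9 and 16.95 after red, with changes of 1.38 (SE 0.10, adjusted p = 1.98e-06) and 1.07 (SE 0.10, adjusted p = 2.4e-05). Model 556912, which overlaps an opposite-strand model, was at 29.2 and 29.2 FPKM in the dark, 65.8 and 53.6 after blue and 59.6 and 53.2 after red, with changes of 1.00 (SE 0.11, adjusted p = 2.77e-05) and 0.92 (SE 0.11, adjusted p = 9.22e-05). In these 3 models every pulsed library was above every dark one.

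PP2C 527976 separated the pulses. Its libraries gave 7.58 and 6.67 FPKM in the dark, 2.85 and 2.32 after blue and 9.01 and 11.3 after red, with blue lowest and red highest. The changes were −1.18 (SE 0.14, adjusted p = 5.2e-05) and 0.45 (SE 0.14, adjusted p = 0.0203), and red exceeded blue by 1.63 (adjusted p = 1.86e-05), the largest difference between the pulses among the phosphatases. This model, too, overlaps one on the opposite strand. Model 527976 lost its call after red without dark replicate 2 (0.37) or red replicate 2 (0.30) and with quantile normalization, median centring or no filter on level. PP2C 597211 had the reverse order, at 44.7 and 45.95 FPKM in the dark, 54.9 and 64.3 after blue and 34.9 and 28.3 after red. It changed by 0.38 (SE 0.12, adjusted p = 0.0138) and −0.51 (SE 0.12, adjusted p = 0.00396), and blue exceeded red by 0.90 (adjusted p = 0.000228). Model 597211 lost its call after blue without dark replicate 1 (0.36) or blue replicate 2 (0.27) and with quantile normalization, median centring or no filter on level. Model 597211 lost its call after red with TPM.

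Of the other PP2C models named, 638012 was at 6.35 and 7.40 FPKM in the dark, 3.28 and 1.87 after blue and 6.88 and 4.99 after red. Its change after blue was −1.16 (SE 0.20, adjusted p = 0.000605), and that after red, −0.19, was not called (adjusted p = 0.434). Model 581824 went from 223 and 248 FPKM in the dark to 111 and 139 after blue and 134 and 128 after red, changes of −0.91 (SE 0.11, adjusted p = 6.56e-05) and −0.84 (SE 0.11, adjusted p = 0.000199). The phosphatase with the highest mean over the libraries, 652729, was at 267 and 263 FPKM in the dark, 302 and 243 after blue and 273 and 248 after red, and its 3 groups overlapped. Neither pulse was called in it, with changes of 0.03 (adjusted p = 0.813) and −0.03 (adjusted p = 0.852).

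RelA/SpoT enzymes make and break guanosine polyphosphates, the alarmones of the bacterial stringent response, which plants and algae also use in chloroplasts. All 4 models of this class were called after blue, 3 upward and 1 downward, and all 4 differed between the pulses in the same pattern of 3 and 1. This class, too, was picked after its values were seen, and the backgrounds are the same 76.1% and 50.7%. After red, 1 of the 4 was called, and it rose. TPM values called all 4 higher after red, and median centring called 2 higher and 1 lower after blue and 1 each way after red. Between the pulses the split of 3 and 1 held under TPM, quantile normalization and median centring.

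RelA/SpoT model 667446, on scaffold 1, positions 847813 to 852309 on the minus strand, was at 159 and 154 FPKM in the dark, 475 and 467 after blue and 144 and 158 after red. Blue stood far above the other groups, and red overlapped dark. The change after blue was 1.58 (SE 0.08, adjusted p = 2.55e-07), that after red was −0.06 (adjusted p = 0.572), and the pulses differed by 1.64 (adjusted p = 6.26e-07). The red change was a called 0.29 on TPM values. This model overlaps one on the opposite strand.

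RelA/SpoT model 585005 was the counterpart that fell. It stood at 495 and 481 FPKM in the dark, 237 and 239 after blue and 499 and 553 after red, with both blue libraries far below the rest. The changes were −1.03 (SE 0.09, adjusted p = 4.53e-06) after blue and 0.11 after red (adjusted p = 0.302). Model 578443 was at 15.1 and 15.4 FPKM in the dark, 40.5 and 48.9 after blue and 27.8 and 29.5 after red and rose after both pulses, by 1.49 (SE 0.10, adjusted p = 1.57e-06) and 0.87 (SE 0.10, adjusted p = 0.0001). In model 23447 the values were 23.7 and 22.9 FPKM in the dark, 30.8 and 29.8 after blue and 23.5 and 23.4 after red, with a small rise of 0.36 (SE 0.08, adjusted p = 0.00337) after blue and a change of 0.01 after red (adjusted p = 0.95). Model 23447 lost its call after blue with quantile normalization or median centring.

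**Figure D4:**
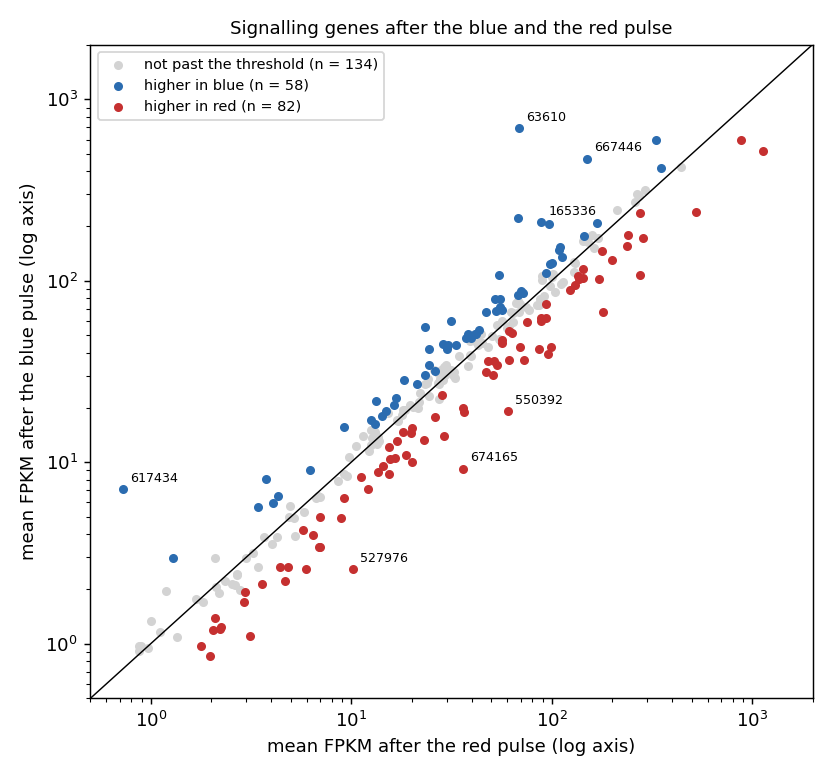
Mean FPKM of each member after the blue pulse against its mean after the red pulse, both on log axes, with the line of equal levels; blue points are the 58 members called higher after blue, red points the 82 called higher after red and grey points the 134 not past the threshold. Diacylglycerol kinase 63610, MAP kinase 617434 and RelA/SpoT model 667446 stand well above the line, and MAP kinase 674165, CD36-family model 550392 and PP2C 527976 below it.

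G proteins switch between a GTP-bound and a GDP-bound state, and their regulators speed the change. Of 29 such members, 10 rose and 11 fell after blue and 9 rose and 6 fell after red, and 3 were higher after blue and 7 after red. TPM gave 12 and 5 after blue and 18 and 1 after red. On FPKM values 34.5% of the 29 rose and 37.9% fell after blue, beside 39.9% and 36.2% of all models. After red, 31.0% rose and 20.7% fell, beside 33.7% and 29.5%. Between the pulses, 10.3% were higher after blue and 24.1% after red, beside 27.0% and 23.7%. A model similar to G protein beta subunits (588989) had the largest rise. It was at 72.1 and 77.00 FPKM in the dark, 222 and 267 after blue and 199.5 and 222 after red. Its pulsed libraries were all above the dark ones, with changes of 1.69 (SE 0.11, adjusted p = 7.7e-07) and 1.49 (SE 0.11, adjusted p = 5.01e-06).

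The member of this group with the highest mean level, 582530, is described as a small G protein of the Rab1/YPT1 class, which directs vesicle traffic in yeast and animals. It stood at 440.1 and 419 FPKM in the dark, 285 and 303 after blue and 261 and 285 after red. Both pulses were below dark, with changes of −0.54 (SE 0.09, adjusted p = 0.000334) and −0.65 (SE 0.09, adjusted p = 0.000179). A receptor of the G protein-coupled class, 58666, was at 25.8 and 26.8 FPKM in the dark, 14.4 and 13.4 after blue and 28.98 and 29.3 after red. Its blue libraries lay below all others, with a change of −0.87 (SE 0.09, adjusted p = 1.55e-05), beside 0.14 after red (adjusted p = 0.181). It overlaps a model on each strand.

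The 119 members outside the 4 groups counted 39 rises and 53 falls after blue and 35 and 37 after red. That is 32.8% and 44.5% after blue, beside 39.9% and 36.2% of all models. After red it is 29.4% and 31.1%, beside 33.7% and 29.5%. TPM values gave 49 and 38 after blue and 67 and 18 after red, and median centring 24 and 68 and 25 and 49. S-adenosylmethionine decarboxylase (546003), an enzyme of polyamine synthesis, had the largest rise of all 274 members after both pulses. It was at 17.5 and 17.6 FPKM in the dark, 188 and 222 after blue and 91.8 and 102 after red, with no overlap between groups. Its log2 changes were 3.46 (SE 0.10, adjusted p = 9.72e-09) and 2.39 (SE 0.10, adjusted p = 3.16e-07), and blue exceeded red by 1.07 (adjusted p = 2.87e-05).

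A model with a Bax inhibitor domain (599273), a family that guards against cell death in animals and plants, had the largest fall of all members after both pulses. It went from 509 and 484 FPKM in the dark to 66.9 and 80.7 after blue and 79.8 and 88.9 after red. Every pulsed library was far below dark, with changes of −2.74 (SE 0.11, adjusted p = 4.39e-08) and −2.55 (SE 0.11, adjusted p = 3.14e-07), and the pulses were not called different (adjusted p = 0.154). Its KOG name is that of a glutamate-binding subunit of an animal receptor. A model of the Pdcd4 class (594292), which restrains translation in mammals, was at 458 and 478 FPKM in the dark, 108 and 107 after blue and 261 and 292 after red. Its changes were −2.11 (SE 0.09, adjusted p = 5.98e-08) and −0.76 (SE 0.09, adjusted p = 6.68e-05), and blue was lowest.

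CD36 is a scavenger receptor for lipids in animals, and 2 named models of its family behaved differently. Model 614508 was at 22.4 and 22.3 FPKM in the dark, 81.5 and 86.2 after blue and 63.4 and 72.7 after red, and rose by 1.86 (SE 0.09, adjusted p = 1.81e-07) and 1.56 (SE 0.09, adjusted p = 1.78e-06). Model 550392 was at 29.1 and 26.8 FPKM in the dark, 19.8 and 18.4 after blue and 60.2 and 60.2 after red. It fell after blue and rose after red, with changes of −0.52 (SE 0.09, adjusted p = 0.000451) and 1.08 (SE 0.09, adjusted p = 1.02e-05), and red exceeded blue by 1.61 (adjusted p = 1e-06).

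The member with the highest mean over the 6 libraries was a copine (592630), a class that binds membranes in the presence of calcium in animals and plants, though its description holds no calcium word. It stood at 1472 and 1489 FPKM in the dark, 646 and 542 after blue and 944 and 810.1 after red. The groups did not overlap, and the changes were −1.32 (SE 0.12, adjusted p = 6.37e-06) and −0.76 (SE 0.12, adjusted p = 0.000418). Model 592630 lost its call after red with quantile normalization. A model of the COP1 class (669146), known in Arabidopsis as a repressor of light responses, was at 3.92 and 3.89 FPKM in the dark, 1.47 and 1.31 after blue and 2.04 and 2.15 after red. Its pulsed libraries were below the dark ones, with changes of −1.04 (SE 0.13, adjusted p = 6.21e-05) and −0.67 (SE 0.13, adjusted p = 0.00164). Because 3 models on the opposite strand overlap it, this level is uncertain.

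Outside the members, 131 tested models carry a description of a protein kinase, a protein phosphatase, a cyclic nucleotide, calmodulin or an EF-hand protein under another KOG class or none. Of these, 53 rose and 43 fell after blue, 49 and 39 after red, and 42 were higher after blue and 26 after red. That is 40.5% and 32.8% after blue, where all models had 39.9% and 36.2%. After red it is 37.4% and 29.8%, where all models had 33.7% and 29.5%. Between the pulses it is 32.1% and 19.9%, where all models had 27.0% and 23.7%. The median change of the 131 models was 0.16 after blue and 0.06 after red, beside 0.05 and 0.04 over all models tested and −0.16 and −0.04 in the members. With TPM they gave 72 and 35 after blue and 77 and 14 after red, and with median centring 45 and 57 and 35 and 52.

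Members that lie next to each other on a scaffold did not all move alike. The pairs given here are examples from a longer list, and pairs that moved alike were not counted. Models 604790 and 604795, on the same strand with 1629 bp between them on scaffold 30, changed by −0.77 and −0.77 after blue and by −0.75 and −0.84 after red. MAP kinase kinases 525662 and 581755, divergent on scaffold 6 with 5219 bp between them, changed by −0.16 and −0.98 after blue and by −0.55 and −0.83 after red. MAP kinase 530517 and its convergent neighbour 100532 on scaffold 16 changed by 1.29 and −0.61 after blue and by 0.82 and −0.51 after red.

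In the authors' deposited table, 167 members had a q-value under 0.05 after blue and 122 after red. Of these, 166 and 121 were also called here, where 211 and 172 were called in all. The share of all models under that q-value was not counted, so these numbers do not set the members apart from other models.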

How the data were processed

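The deposited table, per the file headers, gives an FPKM and a TPM value for each library and model. It also holds the authors' log2 fold changes, p-values and q-values for each pulse against dark, per the file headers. The submitters' processing notes list FastQC, TopHat, Cufflinks, Cuffnorm and Cuffdiff and no roles or versions. Strand, aligner and filter settings were not given in the sources used here.

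Of 10641 models, 10635 had values, and the 9087 with a mean of at least 1 FPKM were fitted on log2(FPKM + 1) with limma 3.58.1 in R 4.3.3. The fit used all 6 libraries with group as the only term, a moderated variance with a trend and two-sided tests. Adjusted p (Benjamini-Hochberg) under 0.05 over all models was the threshold. Alternatives were TPM, quantile normalization, median centring, pseudocounts of 0.1 and 5, no filter, no variance trend, only the groups compared, a replicate block, and each library left out.

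The members and lists were chosen with earlier results of these data known. Named members are the largest called changes in each group and comparison, the most abundant ones, and every member of a few families (casein kinases, calmodulin, cAMP-dependent kinase, PP2A). The 1 model found by a search for cyclases, an adenylate cyclase-associated protein, is named too. A further 18 were added after their values were seen, among them the RelA/SpoT models, the dehydrogenase and histidine kinases, COP1 and the copine. Families were sorted from the descriptions after the values were seen.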

Additional observations from a re-analysis of the deposited data

How the results depend on the processing

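The counts of called members in each of the 4 groups, without regard to direction, and of rises and falls over all members kept to within 1.5 times of those given under most alternatives. The split within a group moved more: after red on TPM values, 49 kinases rose and 22 fell (29 and 44 on FPKM), and 22 phosphatases rose and 1 fell (13 and 9). Exceptions among the first counts were the rises after blue with median centring (58), the rises (138) and falls (44) after red on TPM values, the members higher after blue than after red with median centring (38), and the cyclic nucleotide proteins after blue with median centring (0). Leaving out 1 library at a time gave 1 to 3 cyclic nucleotide proteins after blue, 11 to 25 phosphatases after red, 10 to 14 phosphatases between the pulses and 35 to 60 members higher after blue than after red. The cause was not tested. Deviations by replicate number correlated over 9087 models at 0.09 for dark and blue, −0.08 for dark and red and 0.34 for blue and red. Blue and red libraries of the same number thus shared part of their deviation, and its source was not tested. The labels state no pairing of libraries across groups, and the library code of replicate 1 carries another number in red than in blue and dark. The replicate number is therefore not a known batch. With a replicate block, 213 members were called after blue, 175 after red and 144 between the pulses, and the block ended no call of a named member. Quantile normalization forces 1 distribution on all libraries. For blue against dark, the log2 change that turned sign was on TPM values 0.245 in 557193, 0.0375 in 563435, 0.145 in 596450, 0.18 in 672478 and 0.0466 in 674263, and with quantile normalization 0.135 in 563435, −0.127 in 630260 and 0.0087 in 672478, and with median centring −0.0202 in 543675, −0.261 in 630260 and −0.235 in 652729. With 1 library left out in blue against dark, the log2 changes that turned in at least 1 case ran over −0.0963 to 0.0934 in 557193, −0.0376 to 0.0463 in 630260, −0.127 to 0.188 in 652729 and −0.0424 to 0.0211 in 672478. For red against dark, the log2 change that turned sign was on TPM values 0.229 in 544818, 0.0115 in 562613, 0.129 in 579751, 0.234 in 595480, 0.0751 in 624655, 0.0669 in 630260, 0.161 in 630493, 0.115 in 638012, 0.324 in 652729, 0.292 in 667446 and 0.0403 in 674263, and with quantile normalization −0.16 in 23447, −0.00698 in 58666, −0.0758 in 557193, 0.0415 in 563435, 0.649 in 595480, 0.295 in 652729 and 0.148 in 667446, and with median centring −0.155 in 23447, −0.017 in 58666, −0.088 in 543675, −0.0557 in 557193, −0.0538 in 585005, −0.055 in 598127 and −0.132 in 628315. With 1 library left out in red against dark, the log2 changes that turned in at least 1 case ran over −0.0168 to 0.0303 in 23447, −0.00726 to 0.154 in 543675, −0.143 to 0.0139 in 544818, −0.39 to 0.00559 in 638012, −0.0955 to 0.0436 in 652729 and −0.123 to 0.00985 in 667446. For blue against red, the log2 change that turned sign was on TPM values −0.0174 in 556912, −0.0844 in 606658, −0.0391 in 652729 and −0.00497 in 673334, and with quantile normalization −0.0117 in 556912, −0.0176 in 582530, −0.0907 in 606658 and −0.0666 in 652729, and with median centring −0.0266 in 556912, −0.0936 in 606658, −0.0471 in 652729, −0.014 in 673334 and −0.00199 in 674263. With 1 library left out in blue against red, the log2 changes that turned in at least 1 case ran over −0.0687 to 0.223 in 556912, −0.231 to 0.0901 in 581824, −0.192 to 0.157 in 606222, −0.0416 to 0.0619 in 606658, −0.164 to 0.0625 in 625536, −0.101 to 0.214 in 652729 and −0.109 to 0.289 in 673334. Of these turned values, those of 595480 after red (TPM and quantile normalization), 652729 and 667446 after red (TPM) and 630260 after blue (median centring) were past the threshold. With 2 libraries a group and no deposited counts, the depth behind low levels is known only relative to other libraries: a unit of FPKM stood for 1.0 to 1.69 times the fragments it did in the first dark library, from 1442 models at low level.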
